A study of Arabidopsis thaliana with 24 samples.

Results

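The genes described here are 10 core components of the circadian clock of Arabidopsis thaliana: CCA1 (AT2G46830), LHY (AT1G01060), PRR9 (AT2G46790), PRR7 (AT5G02810), PRR5 (AT5G24470), GI (AT1G22770), TOC1 (AT5G61380), LUX (AT3G46640), ELF3 (AT2G25930) and ELF4 (AT2G40080). They were chosen by name, with earlier results of these data known. Their probe sets were found by locus in the annotation of the deposited table. Each of the 10 genes matched 1 probe set, out of 22591 named loci and 22746 probe sets that were not controls. The probe sets of PRR9 and LUX are of the kind that can match transcripts of more than 1 gene, so their signals are less certain.

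The plant clock is a set of transcriptional repressors that switch each other off in turn through the day. The MYB factors CCA1 and LHY accumulate around dawn, the pseudo-response regulators PRR9, PRR7, PRR5 and TOC1 follow in sequence from morning to evening and repress CCA1 and LHY, and LUX, ELF3 and ELF4 form the evening complex, which represses PRR9 and other daytime genes. GI, a large plant-specific protein of the afternoon, steadies the F-box protein that degrades TOC1. In leaves the clock times photosynthesis, growth and flowering genes, and it sets the readiness of immune responses to bacteria.

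The series measured RNA of leaves on Affymetrix ATH1 arrays, for the question of how a kinase and an ethylene response factor act in the response to flg22, a peptide of bacterial flagellin that plant cells sense as a sign of infection. Leaves of erf104 and mpk6 knockout plants, of 35S::ERF104 plants and of wild-type Col-0 were infiltrated with 1 µM flg22 or with water and harvested 4 h later. All plants were 6 weeks old and had grown on soil in short days of 8 h light and 16 h dark. Each of the 8 combinations of genotype and treatment had 3 arrays, and replicate 2 of erf104 with flg22 was left out, which leaves 23 arrays and 2 in that group. ERF104 is the transcription factor lost in erf104, and in 35S::ERF104 it is driven by the 35S promoter, which is active in most cells and is not its own. MPK6 is the MAP kinase lost in mpk6. The labels name no allele or line number, the sources used here state no hour of infiltration or harvest, and nothing says that the arrays of a group came from separate plants, so the p-values below measure the spread between these arrays only.

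The targeted genes were checked first. Under water, ERF104 differed from Col-0 by 7.42 on the log2 scale in 35S::ERF104 (limma adjusted p = 7.75e-10) and by -2.36 in erf104 (0.0110). MPK6 in mpk6 was 316, 263 and 465 with water, against 1163, 1526 and 724 in Col-0, without overlap, but the log2 difference of -1.69 did not pass (limma adjusted p = 0.0579), nor did that of -1.47 with flg22 (0.257). The arrays were not equally alike. Arrays within a group correlated at 0.874 to 0.930 in erf104 and 35S::ERF104 and at 0.845 to 0.885 in mpk6, at 0.730 to 0.836 in Col-0 with flg22, and at 0.614 to 0.734 in Col-0 with water. By the authors' calls per group, 2386 of 22746 probe sets were called present throughout Col-0 with water and 5409 throughout Col-0 with flg22. In mpk6 the numbers were 9088 with water and 8054 with flg22, and in the erf104 and 35S::ERF104 groups 10483 to 12231. Replicate 1 of Col-0 with flg22 and replicates 1 and 3 of Col-0 with water correlated under 0.75 with every other array, and results that rest on Col-0 are therefore also given without these 3 arrays. The 5 measured markers of leaf mesophyll were called present on every array, and of the 3 flower and 4 root markers, AG, AP3, RHD6, EXPA7 and PIP2;4 were called absent throughout all 8 groups, PI throughout 6 and COBL9, a root hair gene, throughout 2. In whole leaves, fewer cells with a transcript and less of it per cell cannot be told apart.

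All 10 clock genes were called present on at least 1 array of every line, and their spread differed widely between genes. PRR9 ranged 133-fold over the 23 arrays, from 6.25 to 832 signal units, ELF4 60.5-fold and LHY 26.6-fold, whereas PRR5 ranged 3.09-fold and TOC1 4.34-fold. Within groups, the residual SD was 1.64 for PRR9, 1.11 for LHY and 1.05 for ELF4 on the log2 scale, more than in 99.5%, 93.9% and 94.9% of probe sets of like level. PRR5 at 0.36 and CCA1 at 0.52 had a larger SD than 46.6% and 52.1% of such probe sets, near the middle. Pooled over the groups, replicates therefore differed for LHY, PRR9 and ELF4 by more than is usual on these arrays. The largest group SDs lay in mpk6 and Col-0. PRR9 had 3.18 in mpk6 and 2.71 in Col-0 with flg22, against 0.22 to 0.39 in erf104 and 35S::ERF104. LHY had 1.87 in mpk6 with flg22, and ELF4 had 2.66 in Col-0 with water. The detection calls in the authors' deposited table differed between the arrays of a group in 5 of the 8 groups for LHY, 5 for ELF3 and 3 for PRR9. PRR9 was called absent throughout Col-0 with water, and LHY was called absent throughout 35S::ERF104 with flg22. In Col-0 with water, CCA1, LHY, PRR5, TOC1, LUX, ELF3 and ELF4 had both present and absent calls. PRR7 had present and marginal calls there, and only GI was called present throughout.

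**Figure D1:**
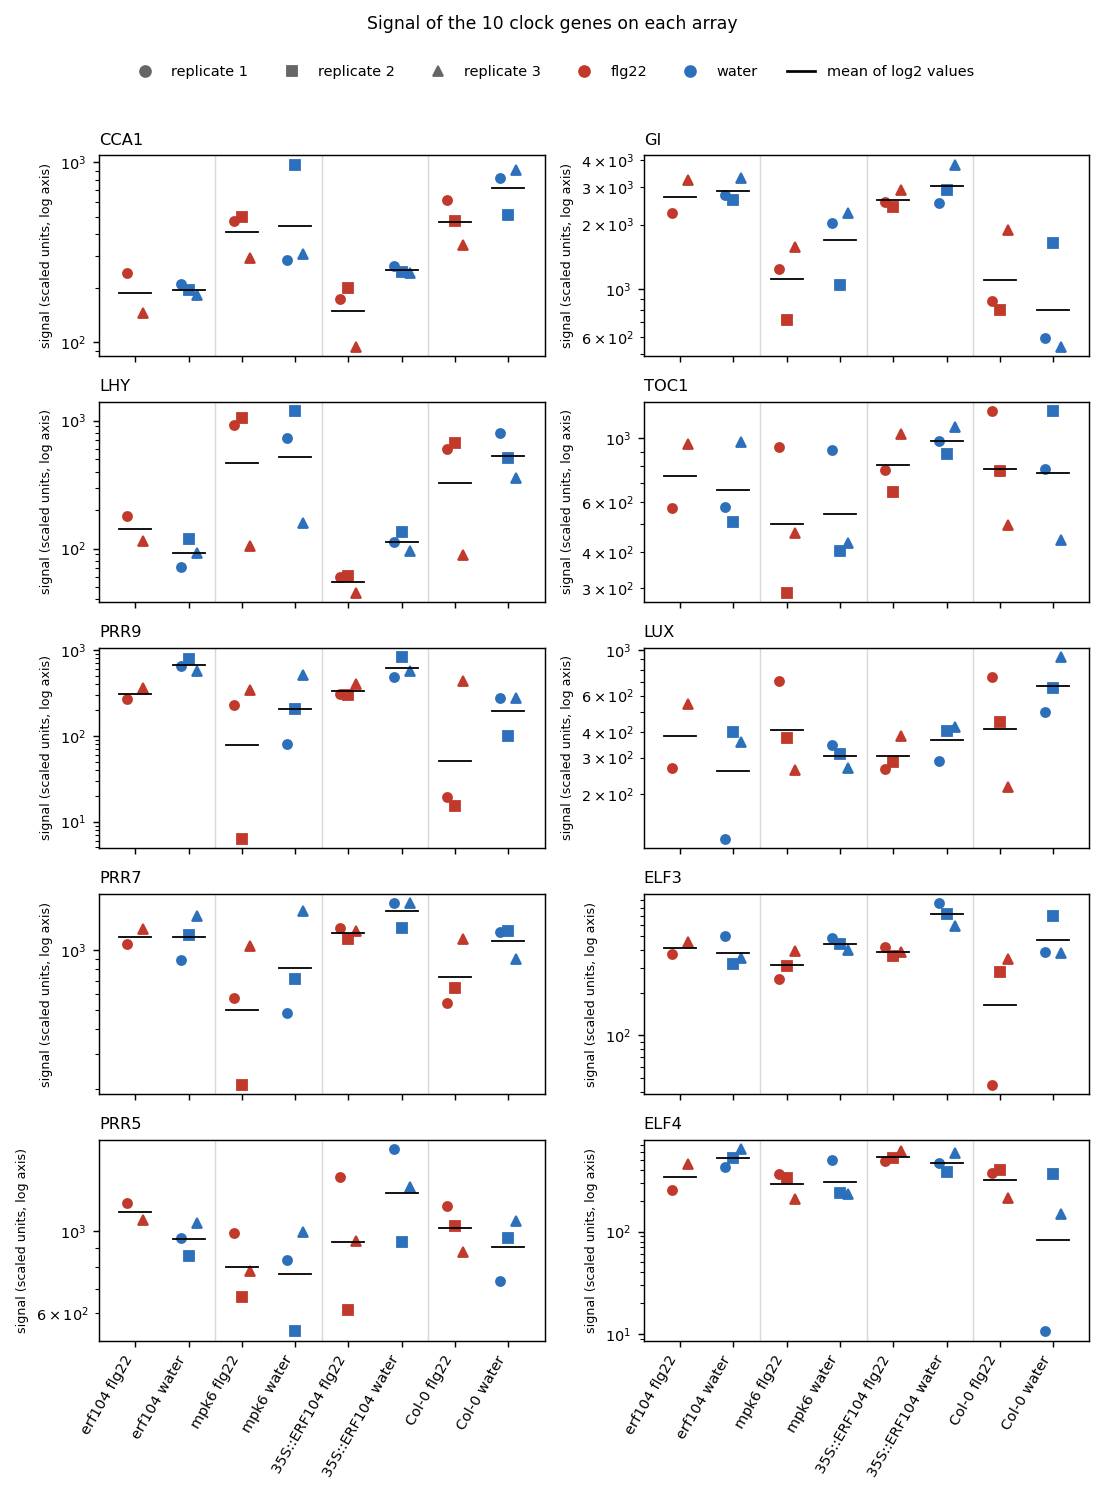
Signal of each clock gene on each of the 23 arrays (vertical log axis, scaled signal units) by genotype and treatment (horizontal axis); symbols are replicates, red is flg22, blue is water, and bars are means of log2 values. CCA1 and LHY sit low and GI sits high in erf104 and 35S::ERF104, while LHY and PRR9 are scattered within mpk6 and Col-0.

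After flg22, the morning gene PRR9 fell in erf104 and in 35S::ERF104, and ELF3 of the evening complex fell in 35S::ERF104. The dawn genes, the day genes PRR7, PRR5 and GI and the other evening genes passed the test in no line. The response of each line was tested on its own arrays, with limma on log2 signals and adjustment by Benjamini and Hochberg over all 22746 probe sets. In 35S::ERF104, 2 of the 10 clock genes passed at an adjusted p under 0.05 and both were lower, and 18.4% of all probe sets passed there, 10.4% as lower and 7.98% as higher. In erf104, 1 of 10 passed, also lower, against 9.71% of all probe sets, 5.35% as lower and 4.36% as higher. Both counts stand near the share of all probe sets that passed in either direction. In mpk6 0 of 10 passed, where 3.72% of all probe sets did, and in Col-0 0 of 10 passed, where 1.86% did. At an unadjusted p under 0.05, limma gave 5 of 10 clock genes in 35S::ERF104, where 28.8% of all probe sets were under it, and 1 in erf104, where 22.2% were. It gave 0 in mpk6 and 0 in Col-0, where 15% and 11.9% of all probe sets were under it.

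PRR9, the earliest of the pseudo-response regulators in the day, had signals of 309, 303 and 399 in 35S::ERF104 with flg22, against 489, 832 and 576 with water. In erf104 the values were 269 and 359.7 with flg22, against 649, 793 and 565 with water. In both lines every flg22 array lay below every water array. The fall was 0.88 ± 0.21 on the log2 scale (SE) in 35S::ERF104 (limma adjusted p = 0.0151) and 1.09 ± 0.24 in erf104 (limma adjusted p = 0.0188). In mpk6 the signals were 227, 6.25 and 344 with flg22, against 80.9, 207 and 517 with water. In Col-0 they were 19.3, 15.1 and 436 with flg22, against 274, 99.1 and 279 with water. The groups of mpk6 and Col-0 overlapped, and the log2 changes of -1.38 and -1.97 had limma adjusted p-values of 0.718 and 0.605. Both PRR9 calls were lost when limma was run without a trend (adjusted p = 0.107 in 35S::ERF104 and 0.197 in erf104) and in 1 fit of 23 arrays, where the spread of all groups is shared (0.892 and 0.842). They were also lost when replicate 2 of either treatment was left out in 35S::ERF104 (adjusted p up to 0.0630), and without flg22 replicate 1 or 3 or water replicate 2 in erf104 (up to 0.176).

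ELF3, the scaffold of the evening complex and a thermosensor, had signals of 423, 362 and 386 in 35S::ERF104 with flg22, against 861, 717 and 598 with water. All flg22 arrays lay below all water arrays, and the fall was 0.88 ± 0.17 on the log2 scale (limma adjusted p = 0.00403). It passed without any 1 of the 6 arrays (adjusted p up to 0.0217), but not without a trend (0.0571) or in 1 fit of 23 arrays (0.486). In mpk6 the signals were 252, 309 and 393 with flg22, against 487, 445 and 401 with water. In Col-0 they were 44.5, 283 and 348 with flg22, against 389.7, 693 and 385 with water. The groups of these lines did not overlap either, with lower values after flg22, though the log2 changes of -0.50 and -1.52 did not pass (limma adjusted p = 0.562 and 0.437). In erf104 the values overlapped, at 377 and 454 with flg22 against 501, 322 and 350.2 with water.

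The remaining clock genes had changes that did not pass the test in any line as fitted, shown with their errors in the plot of flg22 responses. The dawn factor LHY had 59.9, 61.2 and 45.0 signal units in 35S::ERF104 with flg22, all called absent, against 113, 136 and 95.2 with water. The groups did not overlap, and LHY was 2.07-fold lower by its measured signals. The limma adjusted p was 0.104, or 0.0393 among probe sets called present in at least 1 group. Folds given below as at least a value use a floor for the group called absent. The floor is the higher of the measured signal and the lowest signal called present on the same array. Such a fold takes no account of the spread between arrays. For LHY the floor did not alter the fold. Its partner CCA1 had 174, 201 and 94.5 with flg22 there, against 265, 246 and 244 with water, a log2 change of -0.76 (limma adjusted p = 0.117). PRR7 had log2 changes between -0.71 and 0.01 over the 4 lines, and GI, PRR5, TOC1 and LUX between -0.69 and 0.56. Of these, PRR5 in 35S::ERF104, at -0.44, passed with the replicate number as a block (limma adjusted p = 0.0289). ELF4, a small protein of the evening complex, had a log2 change of 1.93 in Col-0 (limma adjusted p = 0.512), where its water arrays spanned 10.6 to 369.

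Averaged over the 4 genotypes with equal weight, in 1 fit of 23 arrays, ELF3 fell by 0.70 ± 0.25 on the log2 scale after flg22 (limma adjusted p = 0.0475). It was the only 1 of the 10 clock genes that passed, where 21.6% of all probe sets passed, 12.5% as lower and 9.16% as higher. The median change was -0.21 over the clock genes and -0.15 over all probe sets. The ELF3 call was at the edge of the threshold: it was lost when the arrays were centred on their medians (adjusted p = 0.283) or quantile normalized (0.191), without a trend (0.0881), with the replicate number as a block (0.0520), and when any of 17 of the 23 arrays was left out (up to 0.108). The 6 arrays without which it passed were all 3 of Col-0 with flg22, replicates 1 and 3 of Col-0 with water, and replicate 3 of mpk6 with flg22. PRR9 had a larger log2 change of -1.33 ± 0.56 that did not pass (limma adjusted p = 0.102). The averages of PRR5, LUX and TOC1 were 0.01, 0.01 and -0.05, with SEs of 0.15, 0.24 and 0.22.

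**Figure D2:**
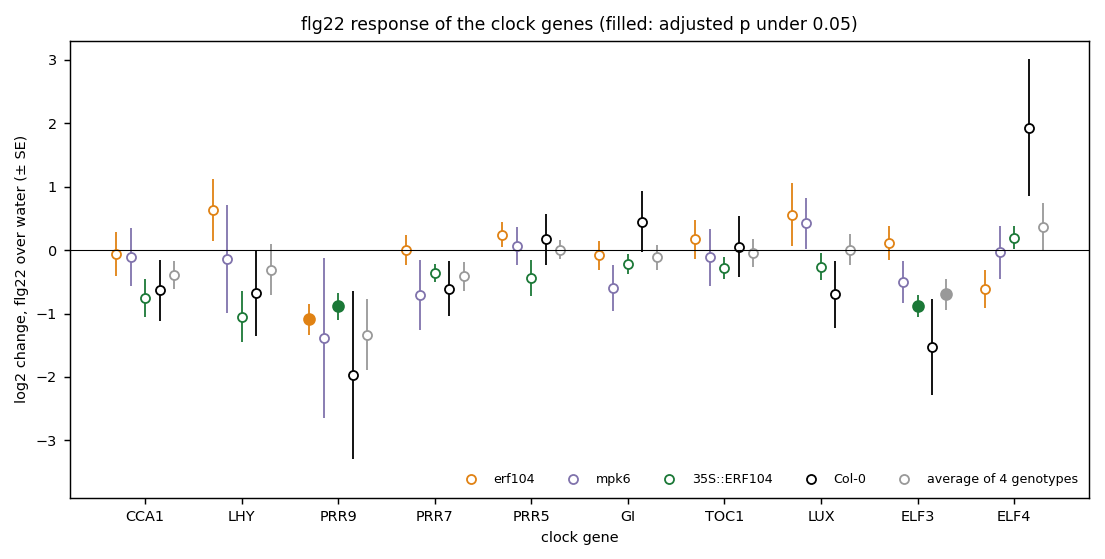
Log2 change of each clock gene, flg22 over water, in each line on its own arrays and averaged over the 4 genotypes (vertical axis; points are estimates, bars ± SE, filled points have a limma adjusted p under 0.05). PRR9 lies below 0 in all lines, at -0.88 to -1.97, and is filled in erf104 and 35S::ERF104; ELF3 is filled in 35S::ERF104 and in the average.

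The differences between lines in the flg22 response were tested as interactions. In erf104 minus Col-0, mpk6 minus Col-0 and 35S::ERF104 minus Col-0, 0 of the 10 clock genes passed, and 0% of all probe sets passed in each. These 3 comparisons share the Col-0 arrays. At an unadjusted p under 0.05, limma gave 2 clock genes in erf104 minus Col-0, namely ELF4 with -2.54 ± 1.08 and ELF3 with 1.63 ± 0.73 (both adjusted p = 0.810), and 0 in the other 2 comparisons. Of all probe sets, 6.12% were under it in erf104 minus Col-0, 7.10% in mpk6 minus Col-0 and 6.73% in 35S::ERF104 minus Col-0. A difference in the PRR9 or ELF3 response between lines was thus not shown, and the SEs of these differences for PRR9 were 1.55 to 1.64 on the log2 scale.

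Genes that work beside the core clock were read from lists of clock outputs, other clock components and light receptors. These lists were chosen with earlier results of these data known, so their counts here and below are descriptions. Of the clock outputs, 19 of 21 listed genes were measured, and averaged over the genotypes 9 fell and 1 rose, where 12.5% of all probe sets fell and 9.16% rose. Markers of leaf mesophyll moved with them: 4 of 5 fell in the average, with a median log2 change of -0.66, and 3 of 5 fell in 35S::ERF104, as did 1 of 3 guard cell markers (OST1) in both. The summed mesophyll markers spanned 121074 to 132491 in 35S::ERF104 with flg22, against 180104 to 207731 with water, and their part in the falls below was not tested. COL1, a B-box protein of the CONSTANS family, fell by 1.45 ± 0.19 on the log2 scale (limma adjusted p = 1.86e-06). Its signal averaged 351 ± 28.2 in 35S::ERF104 with flg22 against 1228 ± 321 with water, and 689.8 ± 229 in Col-0 with flg22 against 1566 ± 71.4 with water (SD, n = 3 each). PIF4, a bHLH factor that promotes stem growth and is repressed by the evening complex, fell by 1.305 (limma adjusted p = 3.12e-06), and the B-box gene BBX18 fell by 1.29 (5.30e-05). CDF3, a DOF factor of the family that delays flowering, fell by 0.89 (limma adjusted p = 0.000153), and COL2, a relative of COL1, fell by 1.095 (0.00733). The gene that rose was CDF5, a relative of CDF3, with 1.37 (limma adjusted p = 0.0101), a call that was lost without the 3 Col-0 arrays. CDF5 had no present call in any of the 8 groups, so its rise is one of signals not called detected.

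Of the other clock components, 24 of 26 were measured and averaged over the genotypes 4 fell, with none rising, a share near the 12.5% of all probe sets that fell. CHE, a TCP factor that binds the CCA1 promoter, fell by 0.96 (limma adjusted p = 0.000557), and RVE7, a MYB relative of CCA1, fell by 0.97 (0.00117). RVE6, a MYB activator of evening genes, fell by 0.50, and LNK4 fell by 0.44. Of the 8 light receptors, the phytochromes PHYC and PHYB fell, by 1.03 and 0.55, and none rose. On centring, the calls of PHYB, PHYC, RVE6 and LNK4 were lost (limma adjusted p = 0.118, 0.125, 0.259 and 0.346), as were those of 4 of the 9 lower clock outputs, GRP7, CAT3, BBX24 and LHCB1.2. PHYC was also lost with quantile normalization (0.158) and without a trend (0.0549), RVE6 with quantile normalization (0.122) and LNK4 with all 24 arrays (0.101). The averaged calls of COL1, COL2, PIF4, BBX18, CDF3, CHE and RVE7 were kept under all 8 alternative settings and without any 1 of the 23 arrays. The median log2 change was -0.45 over the clock outputs and -0.27 over the other clock components, against -0.15 over all probe sets.

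By line, the clock outputs had 8 genes lower in 35S::ERF104, 4 lower in erf104, 1 lower in Col-0 and 0 in mpk6, with none higher. Of all probe sets, 10.4% were lower in 35S::ERF104 and 5.35% in erf104, and 7.98% were higher in 35S::ERF104. In either direction, 1.86% passed in Col-0 and 3.72% in mpk6. Whether the counts differ between lines was not tested. The 1 gene in Col-0 was PIF4, which fell by 2.21 (limma adjusted p = 0.0135); its signal spanned 194 to 374 with flg22 against 841 to 2074 with water, without overlap. That call was lost on centring, quantile normalization, without a trend and without the 3 Col-0 arrays. In 35S::ERF104 the largest falls were those of BBX18 by 1.86 and COL1 by 1.78, and UVR8, the receptor of ultraviolet light, rose by 0.76 while PHYC, CRY1 and PHYB fell. The other clock components had 3 genes lower in 35S::ERF104 (CHE, RVE6 and LNK1), 1 lower in erf104 (CHE) and 0 in mpk6 and Col-0, so that 3 of 24 in 35S::ERF104 stands near the share of all probe sets. The BBX18 and COL1 calls in 35S::ERF104 were kept under all 7 alternatives and without any 1 of the 6 arrays, while those of CHE, RVE6, LNK1, PHYC, CRY1 and PHYB were lost without a trend and in 1 fit of 23 arrays, and that of UVR8 in 1 fit. The 5 calls in erf104 (CHE, CDF3, COL1, PIF4 and BBX18) were lost with all 24 arrays and without a trend. All but that of COL1 were also lost in 1 fit of 23 arrays, and that of CDF3 on centring. When each of the 5 arrays was left out in turn, COL1 passed all 5 times, CHE 3 times, PIF4 and BBX18 2 times each and CDF3 1 time.

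Under water, without flg22, erf104 and 35S::ERF104 differed from Col-0 in the same 3 clock genes: CCA1 was lower, and GI and ELF4 were higher. In erf104 3 of the 10 clock genes passed, 1 lower and 2 higher, where 6.3% of all probe sets passed, 3.55% as lower and 2.75% as higher. In 35S::ERF104 3 of 10 passed, 1 lower and 2 higher, where 5.86% passed, 3.52% as lower and 2.34% as higher. These comparisons share the 3 Col-0 water arrays. Loss and excess of ERF104 thus went with differences of the same sign from Col-0, and all 6 calls were lost without the 3 Col-0 arrays of low correlation and with all 24 arrays. The median over all probe sets was itself -0.51 in erf104 and -0.48 in 35S::ERF104, so the clock genes are read against that shift.

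CCA1 had signals of 211, 195 and 183 in erf104 and of 265, 246 and 244 in 35S::ERF104 with water, against 814, 507 and 905 in Col-0 with water. All arrays of both lines lay below all Col-0 arrays. CCA1 was called present throughout both lines with water, but had both present and absent calls in Col-0 with water, where its signal was higher. The log2 difference was -1.88 ± 0.42 in erf104 (limma adjusted p = 0.0169) and -1.52 ± 0.42 in 35S::ERF104 (0.0415). Centred on the array medians, the differences were -1.21 and -0.87 and did not pass (limma adjusted p = 0.0529 and 0.143). Without the 3 Col-0 arrays they were -1.37 and -1.01 (0.271 and 0.478). With 1 array left out, the call was lost in erf104 without Col-0 water replicate 1 or erf104 water replicate 2 (up to 0.0658), and in 35S::ERF104 without Col-0 water replicate 1 or 3, any 35S::ERF104 water array or its flg22 replicate 1 or 2 (up to 0.109).

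GI had signals of 2743, 2609 and 3302 in erf104 and of 2532, 2895 and 3813 in 35S::ERF104 with water, against 591, 1634 and 539 in Col-0 with water. The groups did not overlap, and the log2 differences were 1.83 ± 0.39 (limma adjusted p = 0.0132) and 1.92 ± 0.39 (0.0148). Both calls were kept on centring, at 2.50 and 2.57, and both were lost with all 24 arrays (limma adjusted p = 0.0933 and 0.0808). That in 35S::ERF104 was also lost with array weights (0.0568). Without the 3 Col-0 arrays, which leaves replicate 2 as the only Col-0 water array, the differences were 0.81 and 0.89 (limma adjusted p = 0.455 and 0.443). Left out singly, Col-0 water replicate 1 ended both calls, as did erf104 water replicate 2 in erf104 and water replicates 2 and 3 in 35S::ERF104 (up to 0.0570 and 0.0757).

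ELF4 had signals of 428, 527 and 639.7 in erf104 and of 467, 383 and 589 in 35S::ERF104 with water, against 10.6, 369 and 147 in Col-0 with water. The groups did not overlap, and the log2 differences were 2.66 ± 0.72 (limma adjusted p = 0.0336) and 2.51 ± 0.72 (0.0442). These sizes rest largely on replicate 1 of Col-0, without which they were 1.17 and 1.02, and without all 3 Col-0 arrays they were 0.51 and 0.36. The call in erf104 was also lost without any 1 of its water arrays (limma adjusted p up to 0.127), and that in 35S::ERF104 without any of 13 of the 23 arrays (up to 0.160).

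The other dawn gene, LHY, had 71.8, 118 and 92.6 signal units in erf104 and 113, 136 and 95.2 in 35S::ERF104 with water, against 804, 509.8 and 356 in Col-0 with water. The groups did not overlap, and the log2 differences of -2.51 ± 0.78 and -2.21 ± 0.78 missed the threshold (limma adjusted p = 0.0527 and 0.0756), but passed with the replicate number as a block (0.0155 and 0.0289). PRR9 was called absent in all Col-0 water arrays and was at least 2.70-fold higher in erf104 and at least 2.51-fold higher in 35S::ERF104 (limma adjusted p = 0.284 and 0.308). LUX, the DNA-binding member of the evening complex, had 121, 399.9 and 356 in erf104 with water, against 502, 651 and 924 in Col-0 with water, a log2 difference of -1.38 (limma adjusted p = 0.0704). PRR7, PRR5 and TOC1 had log2 differences of -0.19 to 0.49 in both lines, and ELF3 of -0.29 in erf104 and 0.61 in 35S::ERF104.

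In mpk6 with water 0 of the 10 clock genes passed, where 0.0044% of all probe sets passed, a share that stands for 1 probe set. The unadjusted p was under 0.05 for 3 of them by limma, and for 15.7% of all probe sets. GI had 2029, 1044 and 2277 signal units in mpk6 with water, overlapping Col-0, with a log2 difference of 1.07 (limma adjusted p = 0.219). ELF4 differed by 1.87 (0.247) and LUX by -1.13 (0.266). CCA1 in mpk6 with water was 287, 973 and 311, and LHY was 733, 1195 and 157, so that replicate 2 stood well above replicate 3 for both dawn genes.

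With flg22, 0 of the 10 clock genes passed in any line against Col-0. Of all probe sets, 0.44% passed in 35S::ERF104, 0.0132% in erf104 and 0% in mpk6. At an unadjusted p under 0.05, limma gave 5, 4 and 0 clock genes in the same order of lines, where 15.1%, 8.78% and 4.93% of all probe sets were under it. CCA1 was 174, 201 and 94.5 in 35S::ERF104 against 618, 471 and 346 in Col-0, without overlap, a log2 difference of -1.64 (limma adjusted p = 0.0881, or 0.0456 with the replicate number as a block). LHY, absent by its calls in 35S::ERF104, was 5.99-fold lower than in Col-0 by its measured signals (limma adjusted p = 0.145, or 0.0310 with that block). GI was 2553, 2412 and 2899 in 35S::ERF104 against 879, 799 and 1889 in Col-0, without overlap, a log2 difference of 1.25 (limma adjusted p = 0.152). The 3 lines were compared with the same 3 Col-0 flg22 arrays, of which replicate 3 stood near erf104 and 35S::ERF104 in LHY (88.6), PRR9 (436) and GI (1889).

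**Figure D3:**
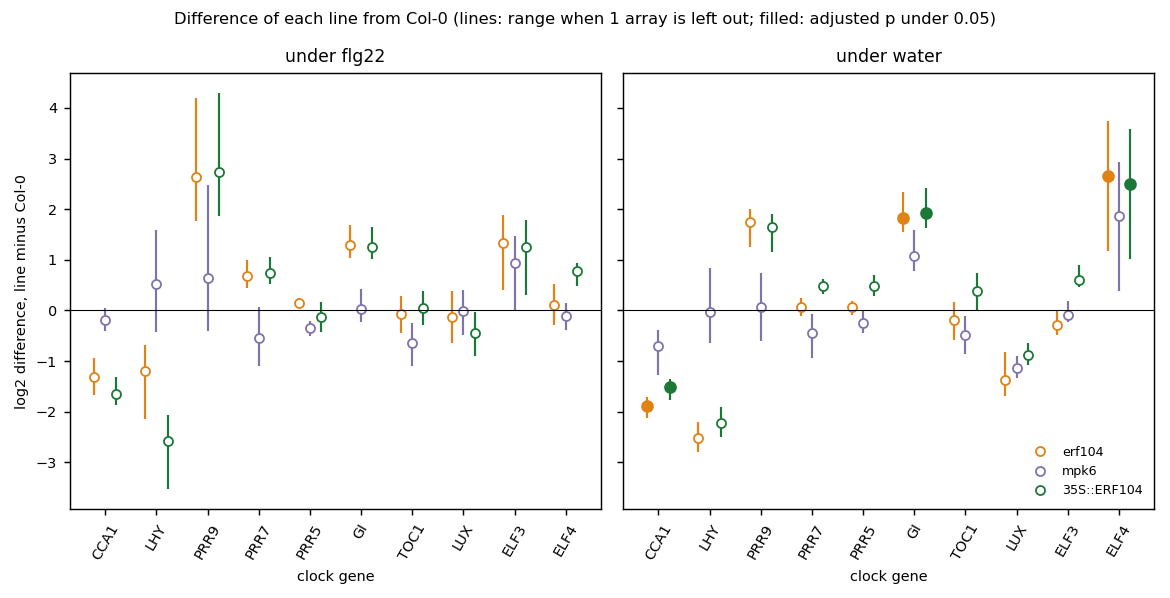
Log2 difference of each line from Col-0 under flg22 (left) and under water (right); points are estimates, filled where the limma adjusted p was under 0.05, and bars are the range of the estimate when 1 array is left out. CCA1, GI and ELF4 are filled under water in erf104 and 35S::ERF104, and no point is filled under flg22.

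The knockout and the overexpressor were also compared with each other, without Col-0, a comparison added after the data had been seen. In 35S::ERF104 against erf104, 0 of 10 clock genes passed under water, where 0.022% of all probe sets passed, and 0 of 10 under flg22, where 0.0879% did. At an unadjusted p under 0.05 the limma counts were 0 and 0 as well, where 3.14% and 3.5% of all probe sets were under it. Under water the log2 differences ran from -0.15 for ELF4 to 0.90 ± 0.49 for ELF3. Under flg22 LHY was 2.61-fold lower in 35S::ERF104 by its measured signals, with 59.9, 61.2 and 45.0 units against 179.7 and 114 in erf104 (limma adjusted p = 1.00). The other genes differed by -0.33 to 0.66 on the log2 scale. CCA1 differed by 0.36 ± 0.42 under water and -0.33 ± 0.47 under flg22, and GI by 0.08 ± 0.39 and -0.05 ± 0.43.

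Several clock genes differed between arrays with a median signal over 160 units and the others, a split that largely follows genotype. The cut at 160 was not among the planned comparisons. Of the 23 arrays, 9 had a median signal of 167 to 302 units, namely all Col-0 arrays but flg22 replicate 3 and replicates 1 and 2 of mpk6 under both treatments. The other 14 had a median of 133 to 158. LHY was 356 to 1195 on the 9 arrays and 45.0 to 179.7 on the 14, without overlap. CCA1 was 287 to 973 on the 9 and 94.5 to 346 on the 14. GI ran the other way, with 539 to 2029 on the 9 and 1569 to 3813 on the 14, and so did PRR9, with 6.25 to 279 on the 9 and 269 to 832 on the 14. All Col-0 water arrays are among the 9, and all erf104 and 35S::ERF104 arrays are among the 14, so genotype and this property of the arrays cannot be told apart under water. Among the 14, the only Col-0 and mpk6 arrays were replicate 3 of Col-0 with flg22 and of mpk6 under both treatments. CCA1 on them was 294 to 346, above the 94.5 to 265 in erf104 and 35S::ERF104. LHY on them, at 88.6, 105 and 157, lay within the range of the other 11. None was a Col-0 water array, and the part of genotype in these values was not tested.

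**Figure D4:**
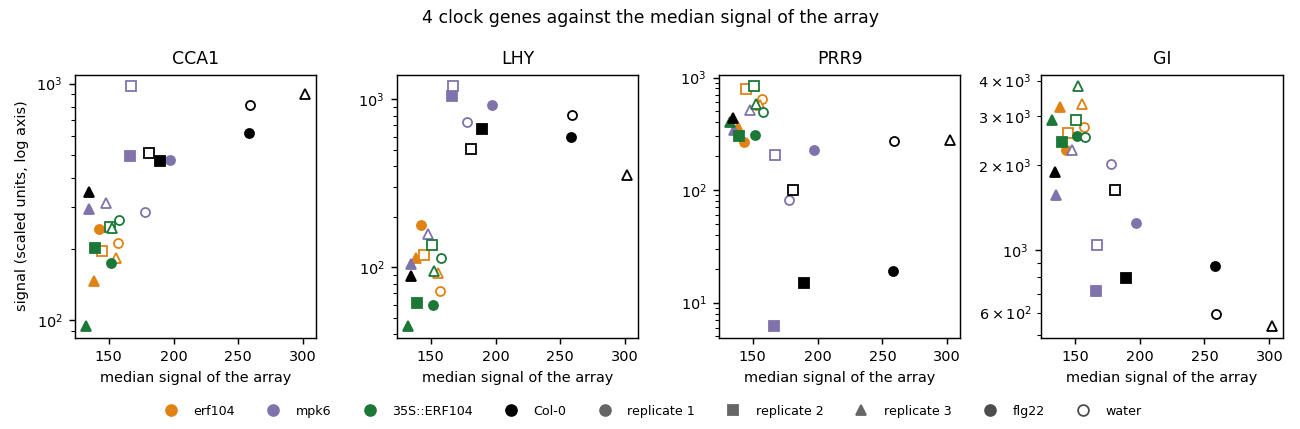
Signal of CCA1, LHY, PRR9 and GI (vertical log axes, scaled signal units) on each of the 23 arrays against the median signal of that array (horizontal axis); colours are genotypes, symbols are replicates, filled is flg22 and open is water. LHY is at 356 or above on the 9 arrays with the higher medians and at 179.7 or below on the other 14.

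Marker genes of other organs also differed in Col-0 with water. The summed signal of 4 root markers spanned 145 to 299 in erf104 and 172 to 242 in 35S::ERF104 with water, against 294 to 2307 in Col-0 with water. The summed signal of 3 flower markers spanned 66.02 to 97.0 in erf104 and 58.7 to 91.0 in 35S::ERF104, against 246 to 939 in Col-0. All 3 flower markers were called absent in these 3 groups, as were 3 of 4 root markers in erf104, all 4 in 35S::ERF104 and 3 of 4 in Col-0. The root marker RHD6 passed as lower in erf104, and the flower markers AG and PI passed as lower in 35S::ERF104. Their part in the CCA1, GI and ELF4 differences was not tested.

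Under water some genes beside the core clock differed from Col-0 in the same comparisons. In erf104, the other clock components had 4 of 24 genes lower and none higher, where 3.55% of all probe sets were lower. RVE2 and RVE1, MYB relatives of CCA1 that rise around dawn, were called absent in erf104 and were at least 8.71-fold and at least 8.18-fold lower (limma adjusted p = 0.0136 and 0.0284). RVE1 spanned 12.5 to 56.4 in erf104 with water, against 118 to 909 in Col-0 with water. TIC, which modulates the clock, and CKB4, a casein kinase subunit, were lower by log2 differences of -0.90 and -1.11. In 35S::ERF104 with water the other clock components had 2 genes higher, CHE by 1.25 and LNK1 by 1.17, and none lower, where 2.34% of all probe sets were higher. Among the clock outputs GRP8, a glycine-rich RNA-binding protein with a cycling transcript, was higher by 1.61 in erf104 and 1.42 in 35S::ERF104, and PIF4 was lower by log2 differences of -1.35 and -1.57. The light receptors had none in either line. All of these calls under water were lost without the 3 Col-0 arrays of low correlation. With flg22, GRP7, a relative of GRP8, was the only gene of these 3 lists that passed against Col-0 in any line, higher in 35S::ERF104 by 1.76 (limma adjusted p = 0.00961), and it was lost with all 24 arrays and without a trend.

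The relation of the 10 genes to each other across arrays is drawn in the map of relative signals, in which each gene is set against its own mean.

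**Figure D5:**
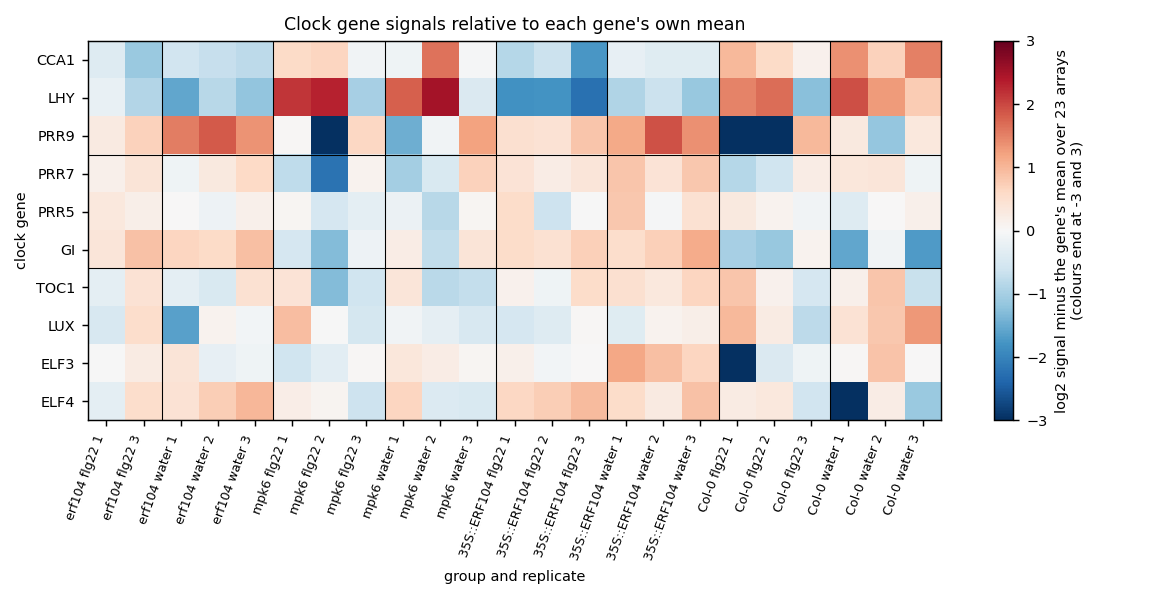
Log2 signal of each clock gene (rows) minus its mean over the 23 arrays, by group and replicate (columns); red is above and blue below the mean, with colours ending at -3 and 3. CCA1 and LHY are above their means on most Col-0 arrays, on mpk6 flg22 replicates 1 and 2 and on mpk6 water replicate 2. LHY is also above its mean on mpk6 water replicate 1. PRR9 is far below its mean on 3 arrays, mpk6 flg22 replicate 2 and Col-0 flg22 replicates 1 and 2.

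For CCA1 and GI, the genes with the most similar log2 signals over the 23 arrays were ranked by Pearson's r among 10177 probe sets. The genes most like CCA1 were RAC3 (r = 0.91), which encodes a small GTPase, NYE1 (0.88), which acts in chlorophyll breakdown, and AT1G27210 (0.85). The median r of all ranked probe sets with CCA1 was -0.02. The genes most like GI were PDC2 (0.90), a pyruvate decarboxylase, AT1G51610 (0.90) and GASA4 (0.88). These r are descriptions over arrays that share groups, treatments and the array medians described above.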

How the data were processed

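Leaf RNA was hybridised to ATH1 arrays. The values used are the intensity per probe set deposited by the authors, on a linear scale. Their 2% trimmed mean was about equal on all arrays, and the sources used here name no software that made them. The detection calls (a non-numeric column, other than signal) come from the authors' deposited Genespring table, per group. The members and gene lists were chosen with earlier results of these data known. All 64 control probe sets of 22810 were left out, and log2 intensity was tested without a pseudocount (R 4.3.3; limma 3.58.1, whose eBayes step used the intensity trend). The flg22 response was fitted per genotype, as the series text describes, and all other comparisons in 1 fit of 23 arrays, 16 comparisons in all. P-values were adjusted over 22746 probe sets, with a threshold of 0.05. The number of arrays limits the precision. The text names all 10 members, and of each list the genes that passed with the largest changes. The scripts were tested on simulated data whose spread was capped below the real one for most probe sets. That test does not show what sizes of change can be found at the real spread. Alternatives are in the closing section. The main fits did not use replicate numbers, which paired the arrays at most in part, as given in the closing section. Promoter and protein sequences were not analysed here.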

Additional observations from a re-analysis of the deposited data

Results flagged for a closer look

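Replicate 2 of erf104 with flg22, which entered only the alternative with all 24 arrays, correlated at 0.223 to 0.250 with the other arrays. On it, 6 of the 10 clock genes had a signal above the highest erf104 water array. CCA1 was 266 against 211, LHY was 133 against 118, and LUX was 626 against 399.9. TOC1 was 1522 against 974, PRR9 was 973 against 793, and ELF4 was 1631 against 639.7. The TOC1, PRR9 and ELF4 values were above those on all other 23 arrays, whose highest were 1249.9, 832 and 639.7. What set this array apart was not tested. No group had more than 3 arrays, so no array was tested as an outlier of its group.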

How the results depend on the processing

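No called clock gene changed sign under any alternative. The count of clock genes that passed in the flg22 response was 1 in Col-0 in 1 fit of 23 arrays (ELF3), 0 in erf104 with all 24 arrays, without a trend and in 1 fit, and 0 in 35S::ERF104 without a trend and in 1 fit, or 3, with LHY added, among probe sets present in at least 1 group. In the average it was 0 when centred, quantile normalized or without a trend, and 2 with array weights (PRR9 adjusted p = 0.0176 by limma). Against Col-0 under water, it was 0 in erf104 with all 24 arrays and without the 3 Col-0 arrays, and in 35S::ERF104 0 with all 24 arrays, array weights or without the 3 Col-0 arrays, and 1 without a trend. In 35S::ERF104 against Col-0 under flg22 it was 4 with array weights. Replicate numbers paired the arrays at most in part, in mpk6 and between mpk6 and Col-0 with flg22. As deviations from group means, replicate 3 of mpk6 with flg22 correlated at 0.361 with replicate 3 of mpk6 with water. It correlated at 0.451 with replicate 3 of Col-0 with flg22. In Col-0 itself, replicate 3 of the 2 treatments correlated at -0.276. With the replicate block, the count in 35S::ERF104 against Col-0 under flg22 was 2 (CCA1 and LHY). Under water it was 4 in erf104 and 4 in 35S::ERF104, with LHY added. In the flg22 response of 35S::ERF104 it was 3, with PRR5 added. The count in the average was 1, with PRR9 past the threshold (limma adjusted p = 0.0380) and ELF3 short of it (0.0520). The causes were not tested, except that leaving out arrays leaves fewer samples.

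Leaving out 1 array at a time gave counts of 0 to 1 for the flg22 response in erf104, 1 to 2 in 35S::ERF104, 0 to 2 in the average and 0 in Col-0 and mpk6. Under water it gave 0 to 5 in erf104, 0 to 2 in mpk6 and 0 to 4 in 35S::ERF104 against Col-0, and under flg22 0 to 1 in erf104, 0 in mpk6 and 0 to 5 in 35S::ERF104. Without replicate 1 of Col-0 with water, CCA1, GI and ELF4 all lost their calls in erf104 and in 35S::ERF104. Few arrays and scattered Col-0 arrays limit what can be seen, most for LHY, PRR9 and ELF4.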
